A study of Triticum aestivum with 16 samples.

Results

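The probe sets described here are the 100 with the largest positive and the 100 with the largest negative differences in level between the 2 field plots of both SB165 and SB3, wheat lines of 1 cross. Wheat probe sets with a mean log2 level of at least 6 over all 16 arrays were eligible, which left 17840 of 61115. For each, the log2 level of replicate 1 was subtracted from that of replicate 2 in SB165 and in SB3, and the smaller of both differences was the score where they had the same sign. The members were thus chosen by their measured values in these 4 arrays. The higher group holds the 100 highest positive scores and the lower group the 100 strongest negative scores. The values that chose the groups are a description only, and all tests below come from the 12 arrays of the other 6 lines.

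The arrays measured transcripts in stem tops of bread wheat, that is the peduncle and penultimate internode with their leaf sheath. The 8 recombinant inbred lines SB3, SB10, SB57, SB62, SB69, SB109, SB165 and SB169 all descend from the cross of Seri M82 with Babax. Each was grown rain-fed in 2 field replicates and sampled at anthesis, about 2 days after heavy rain. A sample was 1 pool of 7 to 8 main-tiller stems from 1 plot on 1 array, so variation among stems of a plot was averaged, and plot, pool and array cannot be told apart. In such bulk tissue, fewer cells of a type and less RNA per cell cannot be told apart either. Array medians ranged from 23.56 to 25.01 intensity units.

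A recombinant inbred line is a nearly homozygous descendant of a cross, so plants in its plots share nearly the same genotype. At anthesis the upper internodes of wheat complete their elongation, a phase in which microtubules, built from alpha and beta tubulin, guide the laying down of cellulose in the wall. The leaf sheath around the internode is green and carries the photosynthetic apparatus, while the stem stores sugar as fructan. The wheat genome joins several subgenomes with related copies of most genes, and a probe set can read more than 1 copy.

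In the higher group, the replicate 2 plot exceeded the replicate 1 plot by a median of 2.16 log2 units in SB165 (4.47-fold) and 1.91 in SB3 (3.76-fold). In the lower group the corresponding medians were -0.81 (1.76-fold lower) and -0.73 (1.66-fold lower). The medians of all eligible probe sets were -0.04 and 0.03. The positive differences were thus larger than the negative ones, and the scores ran from 4.27 to 1.43 in the higher group and from -1.53 to -0.55 in the lower group. The first probe set left out had a score of 1.42 on the higher side and -0.55 on the lower side, so neither group ends at a gap. Both plots differed in the same direction in SB165 and SB3 for 5819 eligible probe sets with a positive sign and 6189 with a negative sign. The groups had median mean levels of 6.87 and 7.40 log2 units, against 7.31 for eligible probe sets.

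The levels in the 4 arrays that chose the groups can be set against the range of the other lines, as a description of where the members lie. Relative to the mean of the 12 other arrays, the higher group had a median level of -0.26 log2 units in replicate 1 of SB165 and 1.87 in replicate 2. In SB3 these values were 0.33 and 2.39. Above all 12 arrays lay 0 of 100 members in replicate 1 of either line, and in replicate 2 there were 61 in SB165 and 94 in SB3. Of eligible probe sets, 6.24% and 20.3% lay there in these replicate 2 arrays, but the rule chose members for high values in them, so nothing is read from that gap. For the lower group the medians were 0.34 and -0.49 in SB165, and 0.25 and -0.53 in SB3. Of its members, 36 lay below all 12 arrays in replicate 2 of SB165 and 38 in that of SB3, with 12.8% and 17% of eligible probe sets, and the rule again chose for this. In replicate 1, 17 lay above all 12 arrays in SB165 and 5 in SB3, with 5.56% and 3.59% of eligible probe sets. High replicate 1 values also strengthened the negative scores, so nothing is read from these gaps either.

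**Figure D1:**
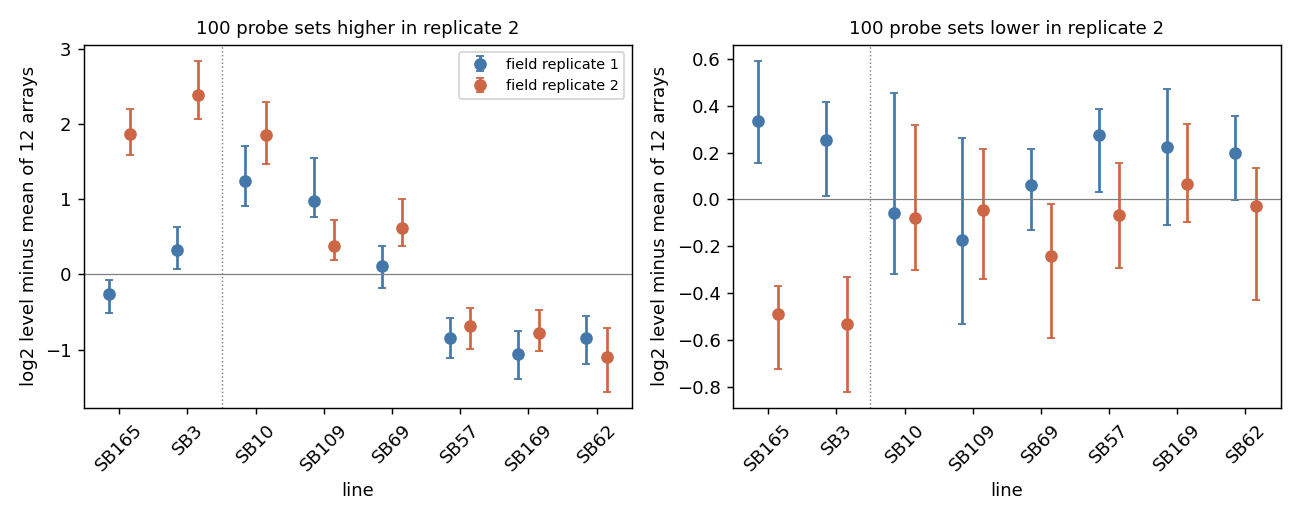
Log2 level minus the mean of the 12 arrays of the other 6 lines (vertical axis) by line and field replicate (horizontal axis), as the median of the 100 probe sets with their quartiles as bars. The higher group sits at 1.87 and 2.39 in the replicate 2 plots of SB165 and SB3 and between -1.10 and 1.85 in the lines right of the dotted line, which the rule did not use. The lower group sits at -0.49 and -0.53 in the replicate 2 plots of SB165 and SB3 and between -0.24 and 0.27 in the other lines.

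Probe sets of the higher group separated the 6 lines that had no part in choosing them. Their level was highest in SB10, with medians of 1.25 and 1.85 log2 units in its plots relative to the mean of the 12 arrays. SB109 followed at 0.97 and 0.38, and SB69 at 0.11 and 0.61, so these neighbours in the order overlapped. Low levels marked SB57 (-0.85 and -0.69), SB169 (-1.06 and -0.78) and SB62 (-0.84 and -1.10), which overlapped one another. By the moderated F-test of limma at an adjusted p of 0.05, 97 of 100 differed among the 6 lines, where 13.9% of eligible and 7.08% of all wheat probe sets did. The line range, from the lowest to the highest line mean of a probe set, had a median of 6.17-fold in this group and 1.27-fold over eligible probe sets. It ran from 2.23-fold to 81.7-fold, and 78 members passed 4-fold.

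SB10 had the highest mean of the 6 lines for 97 of the 100, against 22.7% of eligible probe sets, and SB109 for the other 3. The lowest line was SB62 for 55, SB169 for 31, SB57 for 13 and SB10 for 1. Of eligible probe sets, 16.2%, 11.8%, 8.45% and 25.3% were lowest in these lines. A mean filter can select for differences, since 19 members had a mean under 6 over the 12 arrays and were eligible through SB165 and SB3. Of the 81 others, 78 differed among the lines. Of eligible probe sets, 0.908% had such a mean under 6. Without SB10 and SB62, a comparison added after the data were seen, 85 of 100 differed among the 4 remaining lines, against 7.46% of eligible probe sets (limma). That count includes the 19 members and was not made without them.

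The comparison of SB10 with SB62 asks how far the group differed between its highest and its most often lowest line. These lines were known from earlier results to lie far apart, so the pair is no independent choice. Here 97 of 100 members were higher in SB10 and 0 were lower, where 9.43% and 2.83% of eligible probe sets passed in these directions (limma, adjusted p under 0.05). Over all wheat probe sets the shares were 4.64% and 1.42%. The median difference was 2.45 log2 units (5.46-fold) and ranged from -0.38 to 6.35, with a median of -0.02 over eligible probe sets. Both SB10 arrays lay above both SB62 arrays for 99 members, against 27.9% of eligible probe sets. These counts include the 19 members that were eligible through SB165 and SB3, and were not made without them.

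Lower-group probe sets followed no single order of lines. By the same F-test 49 of 100 differed, which again lay above the 13.9% of eligible probe sets. Without SB10 and SB62 31 of 100 did, against 7.46% of eligible probe sets. Their median line range was 1.93-fold, and 12 passed 4-fold. The highest line was SB169 for 30 members (16.1% of eligible probe sets), SB10 for 25 (22.7%) and SB62 for 20 (15.4%). It was SB57 for 14 (22.3%), SB109 for 10 (13.7%) and SB69 for 1 (9.69%). The lowest was SB109 for 32 (9.97% of eligible probe sets), SB10 for 24 (25.3%) and SB69 for 23 (28.3%). It was SB62 for 16 (16.2%), SB57 for 4 (8.45%) and SB169 for 1 (11.8%). The counts for SB10, SB69 and SB62 as the lowest line were thus near the background. In the test of SB10 against SB62, 22 members were higher and 14 lower in SB10, against 9.43% and 2.83% of eligible probe sets. The median difference was -0.19 log2 units. Both SB10 arrays lay above both SB62 arrays for 30 members and below them for 43, against 27.9% and 31% of eligible probe sets.

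**Figure D2:**
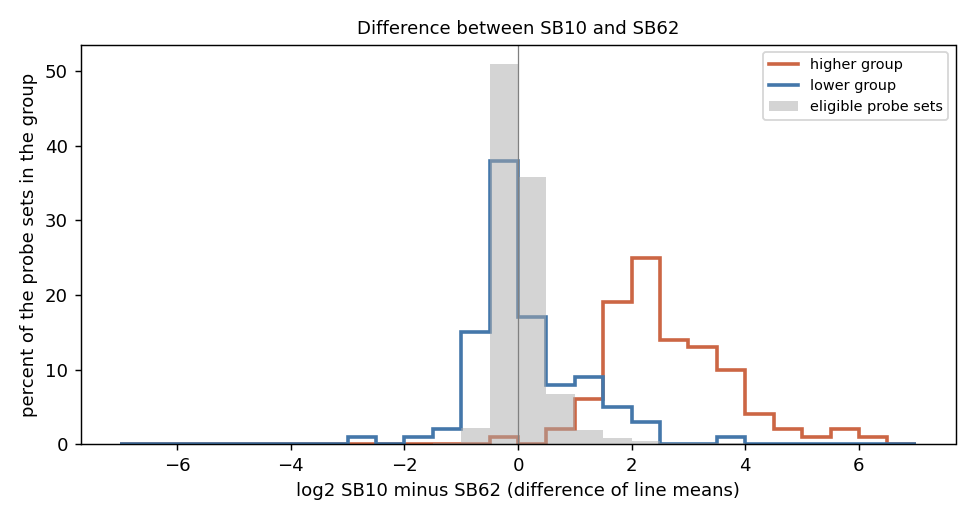
Distribution of the difference in mean log2 level between SB10 and SB62 (horizontal axis) as the percent of each set of probe sets per bin (vertical axis). The higher group is centred at a median of 2.45, the lower group at -0.19 and eligible probe sets at -0.02.

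Replicate 2 did not exceed replicate 1 throughout the field. In the higher group the median difference between plots was 0.57 log2 units in SB69, where all 100 members were higher in replicate 2, against 58.5% of eligible probe sets. It was 0.55 in SB10 (96 members higher, 54.2% of eligible) and 0.35 in SB169 (81 higher, 58.8%). In SB57 it was 0.20, with 71 members higher against 67.2% of eligible probe sets, a share near the background. SB109 went the opposite way, at -0.63 with 91 members lower against 49% of eligible probe sets, and in SB62 the median was -0.18 with 69 lower against 70.6%. In the lower group the medians lay between -0.28 in SB69 and 0.06 in SB109. Members were lower in replicate 2 for 73 of 100 in SB69 and 73 in SB57, where 41.4% and 32.8% of eligible probe sets were. In SB169 61 were lower (41.2% of eligible), in SB62 80 (70.6%), in SB10 50 (45.7%) and in SB109 45 (49%).

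A model with a term for each line and 1 for the replicate was fitted to the 12 arrays. By limma, 0 members of either group passed for replicate 2 against replicate 1, as did 0% of eligible and 0% of all wheat probe sets. At an unadjusted p under 0.05, 11 members of the higher group lay above 0, against 2.02% of eligible probe sets. On the same count 26 members of the lower group lay below 0, against 1.82%, and 3 lay above. The median effect was 0.14 log2 units in the higher group and -0.14 in the lower group, with 0.02 over eligible probe sets. No member of the higher group was higher in replicate 2 of all 6 lines (0 of 100, against 1.43% of eligible probe sets), and 5 of the lower group were lower in all 6 (0.987% of eligible).

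**Figure D3:**
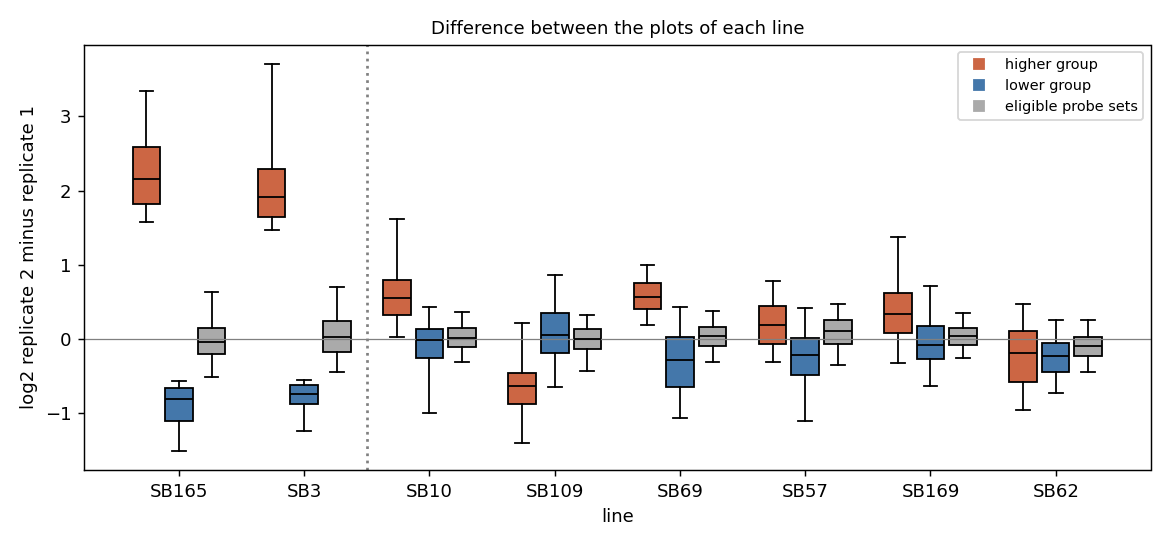
Log2 level of replicate 2 minus replicate 1 (vertical axis) by line (horizontal axis) for the higher group, the lower group and eligible probe sets, with boxes at the median and quartiles and whiskers at percentiles 5 and 95. The boxes of SB165 and SB3 show the values that chose the groups, and right of the dotted line the higher group has its highest medians in SB69 (0.57) and SB10 (0.55) and its lowest in SB109 (-0.63).

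Identifiers of the array carry some information on what the probe sets can read. An ending in _x_at marks probes that may also bind other transcripts, and such endings were found on 38 members of the higher group, 20 of the lower group and 18.8% of eligible probe sets. Identifiers that begin with TaAffx, a class of designs outside the main sequence clusters, were 9 of the higher and 38 of the lower group, against 25.5%. The higher group came from 74 clusters, of which 19 gave at least 2 members and 45 members in all, so its members are not 100 separate transcripts. The lower group came from 90 clusters, and no cluster fell in both groups. Of 54 other eligible probe sets from the higher group's clusters, 36 (66.7%) were also higher in replicate 2 of both lines, and 27 differed among the 6 lines, with 32.6% and 13.9% of eligible probe sets. Of 94 others from the lower group's clusters, 56 (59.6%) were lower in both, with 34.7% of eligible probe sets. Of these 94, 19 differed among the lines. The shares of 66.7% and 59.6% come from the arrays that chose the members, and probe sets of a cluster can read the same transcripts as its members. Nothing is thus read from their gaps to eligible probe sets, and the counts that differed among lines are no separate check of the groups.

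The platform annotation, carried over to RefSeq gene identifiers of IWGSC CS RefSeq v2.1, paired 16 members of the higher group with 11 genes and 4 members of the lower group with 4 genes. These entries have locus identifiers and no descriptive name, so no function is given for them. In the higher group, LOC780572 had log2 levels of 7.23 and 10.33 in the plots of SB165, and 9.12 and 11.65 in those of SB3. In the other lines it measured 10.09 and 10.75 in SB10, 10.26 and 9.36 in SB109, 8.69 and 9.63 in SB69, 7.24 and 7.67 in SB57, 5.98 and 7.09 in SB169, and 6.84 and 6.67 in SB62. Both plots of SB10, SB109 and SB69 thus lay above all plots of SB57, SB169 and SB62, and replicate 1 of SB165 lay among the low plots. SB10 exceeded SB62 by 3.67 log2 units (SE 0.36, 12.7-fold, limma adjusted p = 8.32e-06). LOC606356 had the same span between those lines, 3.67 log2 units (SE 0.36, limma adjusted p = 8.41e-06).

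Levels of LOC606356 were 7.62 and 10.01 in SB165, and 8.43 and 10.72 in SB3. They were 9.71 and 9.95 in SB10, 9.80 and 8.38 in SB109, 8.36 and 8.80 in SB69, 6.68 and 7.29 in SB57, 5.77 and 6.70 in SB169, and 6.06 and 6.27 in SB62. High and low lines separated again, with no overlap between the 6 plots of SB10, SB109 and SB69 and the 6 of the others. This gene had 5 probe sets, of which 1 was a member. A second one, of the same cluster but with a mean of 5.86 log2 units and so below the filter, differed by 2.42 and 2.20 between the plots of SB165 and SB3. The remaining 3 were dim, with means of 4.51 or less.

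LOC543150 had log2 levels of 7.02 and 9.71 in SB165, and 6.79 and 10.49 in SB3 (6.44-fold and 13.1-fold). Its levels were 9.50 and 9.81 in SB10, 8.02 and 8.76 in SB109, 7.65 and 8.47 in SB69, 6.92 and 7.48 in SB57, 5.88 and 7.55 in SB169, and 7.36 and 6.28 in SB62. Among the 6 lines, both plots of SB10 lay above all plots of the others, which ran into each other. It exceeded SB62 by 2.83 log2 units (SE 0.44, 7.12-fold, limma adjusted p = 0.000691). A second probe set of this gene was not a member, with smaller plot differences of 0.89 in SB165 and 0.68 in SB3, and was 1.67 log2 units higher in SB10.

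Most of the remaining genes were also higher in SB10 than in SB62. All 4 probe sets of LOC100037556 were members, with plot differences of 3.45- to 4.85-fold in SB165 and 3.91- to 5.32-fold in SB3. They were 1.61 to 1.88 log2 units higher in SB10 than in SB62. Both probe sets of LOC543072 were members too. That gene's _x_at probe set measured 6.39 and 8.25 in SB165, 6.70 and 8.71 in SB3, 7.83 and 8.27 in SB10, and 5.62 and 5.58 in SB62. Its SB10 plots thus matched the replicate 2 plots of SB165 and SB3 to within 1 log2 unit, and it was 5.48-fold higher in SB10 than in SB62 (limma adjusted p = 1.45e-06).

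Further genes differed by similar amounts. LOC543189 measured 6.10 and 8.35 in SB165 and 6.54 and 9.03 in SB3, and was 1.89 log2 units higher in SB10 than in SB62 (SE 0.28, limma adjusted p = 0.000471). LOC606361 measured 8.00 and 10.02 in SB165 and 8.60 and 10.81 in SB3, and was 2.18 log2 units higher in SB10 (SE 0.33, limma adjusted p = 0.000564). For both genes the replicate 2 plot of SB3 was the highest of all 16. LOC543143, LOC543262 and LOC100125748, which lay beyond the 10 named by the rule, were 9.07-, 5.17- and 5.45-fold higher in SB10 than in SB62. Of LOC100125748 and LOC543262 a further probe set was no member and had small negative plot differences in both SB165 and SB3. That of LOC543262 was dim, with a mean of 4.28 log2 units, so little is read from it. That of LOC100125748 had a mean of 6.67, so probe sets annotated to 1 gene did not always move together.

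LOC542989 departed from this pattern. Its _s_at probe set measured 5.90 and 9.24 in SB165 (10.1-fold) and 6.23 and 10.79 in SB3 (23.5-fold). In the other lines it measured 6.12 and 8.46 in SB10, 6.56 and 6.82 in SB109, 6.00 and 6.31 in SB69, 5.75 and 5.76 in SB57, 6.27 and 6.00 in SB169, and 5.26 and 5.97 in SB62. Replicate 2 of SB10 was thus the only plot of these 6 lines above 7 log2 units, and replicate 1 of SB10 lay among the other lines. The F-test across lines did not pass for either of its members (limma adjusted p = 0.185 and 0.256). The difference between SB10 and SB62 passed for the _s_at probe set (1.67 log2 units, SE 0.47, limma adjusted p = 0.0471) but not under 14 of 18 alternatives, among them without replicate 2 of SB10 (0.50, limma adjusted p = 0.463). Its other member, an _x_at probe set, measured 6.43 and 8.74 in SB165, 6.67 and 10.19 in SB3 and 6.47 and 8.12 in SB10.

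**Figure D4:**
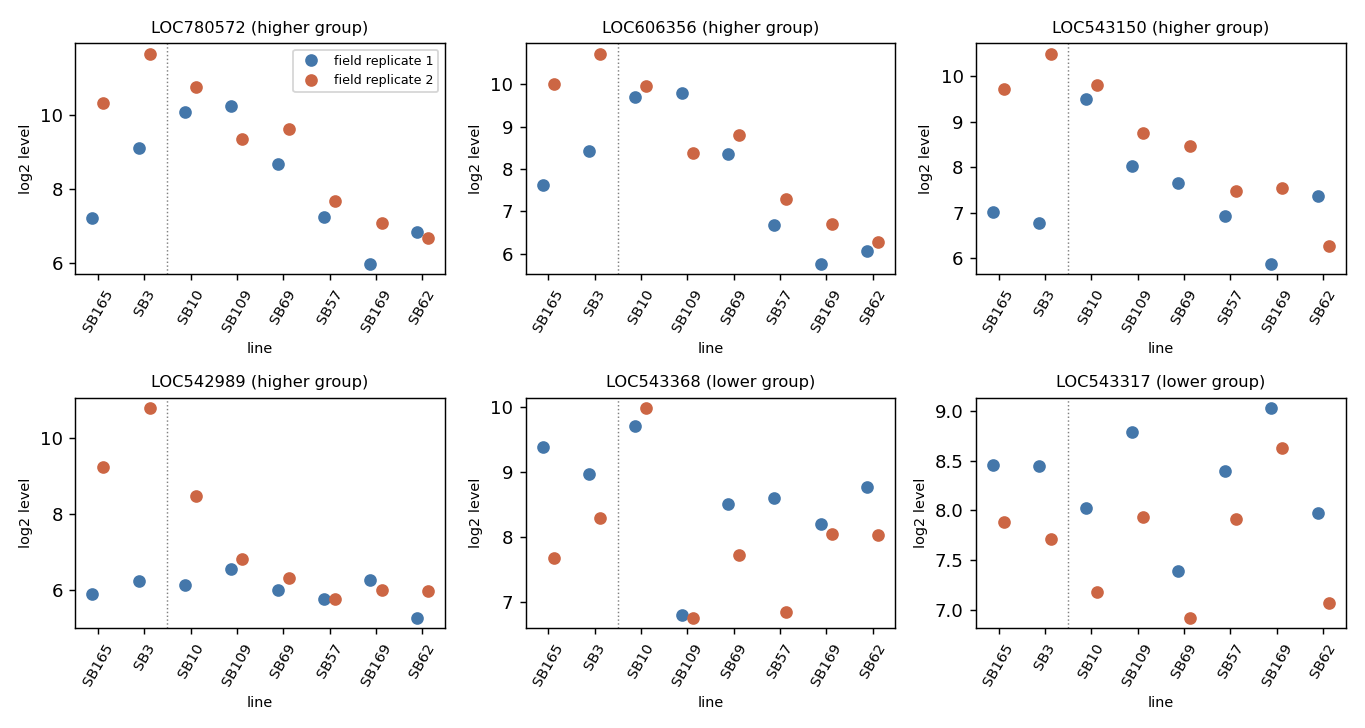
Log2 level (vertical axes) in each plot of each line (horizontal axes) for 4 genes of the higher group and 2 of the lower group, with 1 point per array coloured by field replicate. LOC780572, LOC606356 and LOC543150 are high in both plots of SB10, and LOC542989 is high only in replicate 2 of SB10 among the 6 lines right of the dotted line. In all of these 6 lines LOC543317 is lower in replicate 2, a sign that the rule fixed in SB165 and SB3.

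The probe set with the highest score of all, Ta.3110.1.S1_at, has no gene in the annotation used. Like the next one it was chosen for naming after its values were seen. It measured 5.50 and 9.77 in SB165, 5.58 and 11.35 in SB3, and 6.03 and 9.18 in SB10, with the plots of the other 5 lines between 4.95 and 7.60. The 3 lines with widely separated plots were those of LOC542989, all with the higher value in replicate 2. Its F-test passed narrowly (limma adjusted p = 0.0472) and did not pass under 14 of 19 alternatives. The second score belonged to Ta.2809.1.S1_s_at, at 4.62 and 8.06 in SB165, and 5.82 and 9.25 in SB3. Unlike the first it was high in both plots of SB10 (7.40 and 8.23) and low in both of SB62 (4.56 and 4.68), a 9.14-fold difference.

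Only 3 members of the higher group did not pass the F-test: both of LOC542989 and Ta.19321.1.S1_at, which was named after its values were seen. A single member, TaAffx.18447.3.S1_s_at, was lowest in SB10 of all 6 lines, at 5.89 and 6.37, and highest in SB109, at 8.98 and 8.34. It was singled out after its values were seen.

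In the lower group the 4 members with a gene had modest plot differences. LOC543317 measured 8.45 and 7.88 in SB165 and 8.45 and 7.72 in SB3. Its levels were 8.03 and 7.18 in SB10, 8.79 and 7.94 in SB109, 7.39 and 6.92 in SB69, 8.39 and 7.92 in SB57, 9.03 and 8.63 in SB169, and 7.97 and 7.07 in SB62. Replicate 2 was the lower plot in all 6 lines that the rule did not use, while the rule fixed that sign in SB165 and SB3. Over the 6 lines the difference was -0.66 log2 units (SE 0.08, limma adjusted p = 0.102), the smallest adjusted p of the group for the replicate, and did not pass. Its lines differed over a 3.19-fold range (limma adjusted p = 0.0224), a call that 3 of 19 alternatives did not keep.

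LOC543368 measured 9.38 and 7.67 in SB165 and 8.97 and 8.29 in SB3. Its levels were 9.70 and 9.98 in SB10, 6.80 and 6.75 in SB109, 8.50 and 7.72 in SB69, 8.60 and 6.85 in SB57, 8.19 and 8.04 in SB169, and 8.76 and 8.02 in SB62. SB10 was above and SB109 below all other plots of these lines, with an 8.35-fold range (limma adjusted p = 0.00186). It was 1.45 log2 units higher in SB10 than in SB62 (SE 0.39, limma adjusted p = 0.0394), a call that 7 of 19 alternatives did not keep.

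LOC543244 measured 10.18 and 9.12 in SB165 and 10.12 and 9.56 in SB3, and its line means spanned 2.74-fold (limma adjusted p = 0.027), a call that 6 of 18 alternatives did not keep. LOC780660 measured 7.71 and 6.21 in SB165 and 7.52 and 6.52 in SB3, and its lines did not pass (limma adjusted p = 0.148). The strongest scores of the group belonged to 2 probe sets with no gene in the annotation, named after their values were seen. TaAffx.26519.1.S1_at measured 9.89 and 8.14 in SB165 and 9.63 and 8.10 in SB3, and in the other lines its lowest plot was replicate 2 of SB69, at 7.93. TaAffx.142789.1.S1_at measured 10.40 and 8.61 in SB165 and 10.06 and 8.55 in SB3, and was likewise lowest in replicate 2 of SB69, at 8.45. Neither differed among the 6 lines by the F-test (limma adjusted p = 0.424 and 0.55).

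None of the probe sets with a descriptive gene name was a member, and the lists below show what such genes did in the same plots. Tubulin and histone genes were planned within the list of translation genes, and tubulin also with the cell wall enzyme XTH as markers of elongating internode. They are shown here as lists of their own. Tubulin genes, which encode the subunits of microtubules, were read by 10 eligible probe sets of 6 genes. In replicate 2, 9 of them were higher than in replicate 1 in both SB165 and SB3, where 32.6% of eligible probe sets were, with median differences of 0.66 and 0.49 log2 units. The beta tubulin tubb2 (LOC543258) went from 12.15 to 12.84 in SB165 and from 12.76 to 13.09 in SB3. Tubb5 (LOC543261) was 1.72- to 1.83-fold higher in replicate 2 of SB165 and 1.96- to 2.62-fold in that of SB3 over its 4 probe sets. The exception was an alpha tubulin probe set (TUBA), at 8.11 and 8.05 in SB165 and 8.58 and 8.52 in SB3.

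Tubulins also differed among the lines the rule did not use, though their full order of lines was not examined. Among the 6 lines 10 of 10 differed by the F-test and 8 were higher in SB10 than in SB62, where 13.9% and 9.43% of eligible probe sets passed, with a median difference of 0.70 log2 units. Without replicate 2 of SB10, 6 differed and 2 were higher in SB10, and without either plot of SB62, 5 were higher. In SB10 the level of tubb2 was 13.11 ± 0.11 (SD, n = 2) while in SB62 it was 12.12 ± 0.02 (SD, n = 2), a 1.98-fold difference (limma adjusted p = 2.56e-05). In SB69 all 10 were higher in replicate 2, with a median of 0.34, and in SB109 the median was -0.10. The tubulin median had the sign of the higher group in SB69 and SB109 but not in SB62, where it was 0.01 with 5 of 10 higher in replicate 2.

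Photosystem II proteins PsbO and PsbP, which hold the oxygen-evolving complex together in green tissue, were read by 3 bright probe sets with means of 12.3 to 13.4 log2 units. None of the 3 differed among the lines, and their medians between plots were -0.16 in SB165 and -0.04 in SB3. Of the markers of green leaf sheath sought by name, these were the only ones found in the annotation used, so the share of sheath in each sample rests on these genes alone and its part in the results was not tested.

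**Figure D5:**
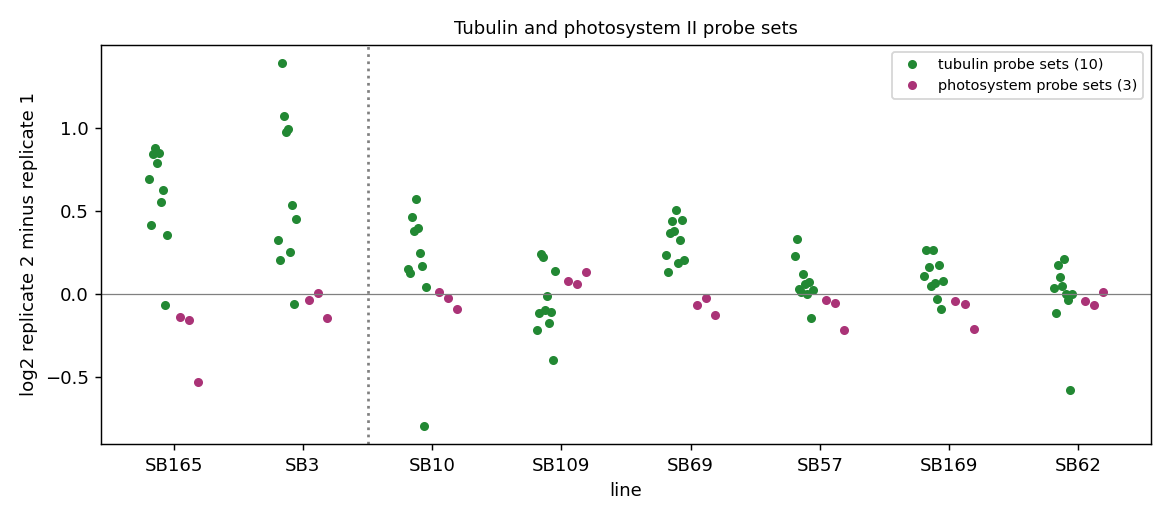
Log2 level of replicate 2 minus replicate 1 (vertical axis) by line (horizontal axis), with 1 point for each of 10 tubulin and 3 photosystem II probe sets. Tubulin points lie mostly above 0 in SB165 (median 0.66), SB3 (0.49) and SB69 (0.34), while the photosystem medians in SB165 and SB3 are -0.16 and -0.04.

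COMT1 (LOC543449), a methyltransferase of lignin synthesis and so a mark of lignifying tissue, went from 12.51 to 12.92 in SB165 and from 12.71 to 13.06 in SB3. In SB10 it measured 13.01 ± 0.04 (SD, n = 2), against 12.33 ± 0.08 (SD, n = 2) for SB62, and was 1.60-fold higher (limma adjusted p = 0.000533). XTH, an enzyme that cuts and rejoins xyloglucan in growing walls, measured 8.76 and 8.68 in SB165 and 8.40 and 8.96 in SB3, and its lines did not pass.

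Histone H2A and H2B genes, which encode core proteins of the nucleosome and whose transcripts are made mainly in dividing cells, were read by 18 probe sets of 5 genes, most of them dim. Only 4 passed the filter, all for H2B, with medians of 0.16 in SB165 and 1.62 in SB3. All were higher in replicate 2 of both lines, against 32.6% of eligible probe sets. The 14 below it, of 4 genes and described after the values were seen, had larger medians of 1.71 and 3.23. Of these 14, 13 were higher in both, against 23.4% of all wheat probe sets. Levels at the wcH2A-9 (LOC732714) probe set Ta.27657.6.S1_x_at went from 4.42 to 7.51 in SB165 and from 4.75 to 9.51 in SB3. At the wcH2B-8 (LOC543184) probe set Ta.7378.18.S1_x_at they went from 3.52 to 6.83 and from 4.40 to 8.50. Both were singled out after their values were seen.

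Histone probe sets also differed among lines the rule did not use. Of the 18, 12 differed by the F-test and 12 were higher in SB10 than in SB62, where 7.08% and 4.64% of all wheat probe sets passed (limma). All 6 probe sets of wcH2A-9 were among the latter, with a median difference of 2.85 log2 units. Within SB10 all 18 were higher in replicate 2, with a median of 1.14 log2 units, whereas in SB69 the median was 0.02 and in SB109 -0.16. Without replicate 2 of SB10, 12 still differed among lines and 9 were higher in SB10.

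The identifiers of 4 members of the higher group place them in the sequence clusters of wcH2A-9 and wcH2B-8, although the annotation gives these members no gene. They were singled out after their values were seen. Ta.27657.5.S1_x_at, of the wcH2A-9 cluster, had a score ranked 5 in the group, with log2 levels of 4.90 and 7.98 in SB165 and 5.36 and 10.08 in SB3. It measured 7.34 and 9.19 in SB10 and 7.59 and 7.58 in SB109, while the plots of SB69, SB57, SB169 and SB62 lay between 4.65 and 5.45. Both SB10 and SB109 were thus apart from the low lines, here with SB69 among the low ones. The 4 members were 2.13 to 3.38 log2 units higher in SB10 than in SB62 (limma adjusted p of at most 0.000722). The share of dividing cells in the samples cannot be told apart from histone transcript per cell, and its part in the results was not tested.

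Fructan exohydrolases, which release fructose from stored fructan, showed no common direction. For 1-FEH (LOC543441) the plots measured 10.84 and 11.04 in SB165 and 11.10 and 10.92 in SB3. For the eligible probe set of 6-FEH (LOC780575) they measured 6.15 and 5.31 in SB165 and 5.69 and 6.65 in SB3, opposite in sign. Its other probe sets lay just below the filter. Ta.30950.1.A1_x_at differed by -0.30 in SB165 and 0.90 in SB3, and TaAffx.93410.1.S1_at by -0.47 and -0.24. Among genes of translation, 3 eligible probe sets of RPL9 and TEF1 gave 0 calls among the 6 lines, and of 6 probe sets for stress proteins 0 were eligible. Of these, hsp16.9A (LOC543277, mean 3.99) was singled out after its values were seen. It went from 7.82 to 6.46 in SB165 and from 6.56 to 4.62 in SB3. Its level differed among the 6 lines (limma adjusted p = 1.77e-09). That difference was not one between SB10 and SB62, which had dim means of 2.84 and 2.67 and did not pass (limma adjusted p = 0.616). The other stress probe sets had smaller plot differences in SB165 and SB3, of both signs.

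Control probe sets of the array moved in part with the groups. Glucose-6-phosphate dehydrogenase opens the pentose phosphate pathway and was higher in replicate 2 at the 3′ end of its transcript by 0.59 log2 units in SB165 and 0.43 in SB3. The same probe set differed by -0.47 in SB62 and -0.29 in SB109. It differed by 0.56 in SB57, 0.40 in SB69, 0.14 in SB10 and 0.13 in SB169. Sucrose synthase, which cleaves sucrose in sink tissue, differed at its 5′ end by -0.86 in SB165 and -0.63 in SB3, and at its 3′ end by -0.09 and -0.14. Its gap between 3′ and 5′ signal, a sign of RNA quality, thus widened by 0.77 and 0.50. That gap also widened by 0.54 in SB69 and 0.51 in SB62, and changed by -0.15 in SB10. The gap of ubiquitin changed by 0.26 in SB165 and -0.43 in SB3. Poly-A control RNA added before labelling differed by 0.59 in SB165 and -0.55 in SB3, opposite in sign, and by 1.00 in SB10 and -0.78 in SB109. The part of these control signals in the differences between plots was not tested.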

How the data were processed

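The deposited values are 1 normalized intensity per probe set and array on a linear scale, as inferred from the values. The submitters' processing notes list the tools GCOS and RMA, without versions or order. RMA aligns probe distributions across arrays and compresses dim signals. Of 61289 probe sets, 174 control and reporter probe sets were left out. A floor of 1 was applied before the log2 step, and the table had 0 columns outside the 16 samples. The members and lists were chosen with earlier results of these data known, and list genes were matched by annotated name after the data were seen.

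The fits used R 4.3.3 with limma 3.58.1 (eBayes with intensity trend, 9.17 prior beside 6 residual degrees of freedom for the line fit), with Benjamini-Hochberg adjustment over 61115 probe sets and a threshold of 0.05. Per the labels, a replicate is its own field plot. With 2 arrays a line, their number limits the precision. Differences between plots correlated above 0.1 in 16 of 28 pairs of all 8 lines (-0.41 to 0.66). Among the 6 fitted lines this held for 7 of 15 pairs (-0.29 to 0.36, median -0.06). Replicate numbers were not taken as pairing the samples in the line fits, and the replicate block was run as an alternative. The text names the 10 members of each group with the largest scores among those with 1 gene, of which the lower group had 4, and control probe sets whose identifiers stand for ubiquitin, sucrose synthase and glucose-6-phosphate dehydrogenase. The annotation pairs 1273 probe sets with 1 gene each and 0 with several, and 1272 matched RefSeq. In a simulation of 61115 probe sets, a shift of 1 log2 unit in 100 of them was recovered for 70% by the F-test and 76% by the SB10 contrast. For another 100 shifted by 2 units in the same simulation the shares were 97% and 99%. Over both sizes together, 7 of 174 F-test calls were false. The simulation drew errors independently, so probe sets that move together between plots were not part of it. Alternatives varied the block, normalization, filter, trend, array weights, suffixes, threshold, rule and arrays. Python 3.11.15, numpy 2.4.6, pandas 2.3.3 and matplotlib 3.10.9 served for summaries and plots.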

Additional observations from a re-analysis of the deposited data

Results flagged for a closer look

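Lines that the rule did not use had opposite plot differences in the higher group. The median of replicate 2 minus replicate 1 was 0.55 log2 units in SB10 and 0.57 in SB69, but -0.63 in SB109, with over 90% of members on the same side within each of these lines. Each line has 1 pair of plots, and the difference between lines was not tested.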

How the results depend on the processing

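The counts for the higher group stayed within 1.5 times of those given under every alternative run: 85 to 100% differed among lines and 93 to 98% were higher in SB10, and leaving out 1 array gave 94 to 99% and 92 to 99%. For the lower group, leaving out 1 array gave 40 to 56% differing among lines, 13 to 22% higher and 7 to 16% lower in SB10. The count of members lower in SB10 dropped to 7% at an adjusted p under 0.01 and to 8% among the top 50 scores, and without SB10 and SB62, added after the data were seen, 31% differed among the remaining lines. Replicate 2 was lower for 1% of the lower group after quantile normalization and for 1.41% without suffixed probe sets, and for 0% otherwise. With the field replicate number as a block, 97% of the higher and 55% of the lower group differed among lines, and 98% and 22% were higher in SB10. The cause of these changes was not tested. For LOC543317 the small difference between SB10 and SB62 (0.08 log2 units) turned to -0.34 without replicate 1 of SB10 and to -0.37 without replicate 2 of SB62, and ranged up to 0.54 over the arrays left out. Rules with a mean of at least 5 or 7 shared 54 and 45 members with the higher group and 72 and 66 with the lower group. The mean of both differences as the score moved the lower group's median in SB69 to -0.52. Among single probe sets, 44 results fell below and 12 rose above the threshold under an alternative, and 727 kept their side. The number of arrays and dim signals limit these comparisons.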
